A study of Homo sapiens with 6 samples.

Results

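The Hippo pathway effectors and YAP targets described here are 10 genes, YAP1, WWTR1, TEAD1, TEAD4, LATS2, CCN1, CCN2, ANKRD1, AMOTL2 and AJUBA, chosen by name from a table of 16670 genes. All 10 were listed once and all 10 passed the filter on low values that left 13088 genes tested. The cells were A549, an established human line of non-small cell lung cancer, and bulk RNA was sequenced. Before sampling, all of them spent 1 week in alisertib, which blocks Aurora A, a kinase of mitosis, and were thereby made senescent, that is, lastingly arrested in division. The untreated group (3 libraries) was then given nothing more, whereas in the salinomycin group (3 libraries) salinomycin, a polyether ionophore, was present at 2.5 µM for 48 h. No library of the study was without alisertib, so each difference below is between senescent cells with and without salinomycin. The labels call the libraries biological replicates without saying whether they came from separate cultures, and p-values measure only the spread between them.

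The Hippo pathway is a kinase cascade in which the MST kinases activate the LATS kinases, which phosphorylate the coactivators YAP (from YAP1) and TAZ (from WWTR1). Phosphorylated YAP and TAZ are held in the cytoplasm or degraded, whereas the unphosphorylated proteins enter the nucleus and bind the TEAD transcription factors, which supply the contact with DNA. In epithelial cells the cascade responds to cell density, cell shape and tension on the actin cytoskeleton, and CCN1, CCN2, ANKRD1, AMOTL2, AJUBA and LATS2 are widely used as transcripts that YAP, TAZ and TEAD induce. AMOTL2, AJUBA and LATS2 also act on the cascade themselves. The transcript levels below say nothing directly about phosphorylation or the location of YAP and TAZ.

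Reads recovered from the rounding of the deposited values, which are estimates, numbered 13539959 to 16457408 in untreated and 14929443 to 19641149 in salinomycin libraries. All 6 epithelial markers examined (EPCAM, CDH1, KRT7, KRT8, KRT18 and KRT19) passed the filter, and their summed level was 210300 to 238100 normalised units in untreated and 61090 to 70540 in salinomycin libraries. Of these markers 5 fell and KRT19 rose, where 40.2% of all tested genes were lower and 41.6% higher. The summed level of 6 fibroblast markers was 600.1 to 822.7 in untreated and 411.6 to 449.9 in salinomycin libraries, mostly from COL1A1, while DCN and COL1A2 were near 0 in both groups. Endothelial markers summed to 11.74 to 20.54 and 7.51 to 14.81, and CLDN5 and KDR were not listed. Immune markers summed to 193.1 to 225.9 and 47.82 to 72.28, mostly from CD14, which was lower with salinomycin, while PTPRC and CD3E were not listed. The low markers LYZ (6.40 and 19.6 units) and CD68 (2.15 and 9.34) had the higher mean with salinomycin, the opposite direction. The part these markers play in the results below was not tested. In bulk RNA, fewer cells that express a gene and less of its RNA per cell cannot be told apart.

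The TEAD factors bind DNA at the letters GGAATG, so the bases before the start sites of the genes are shown first, from RefSeq on GRCh38.p14. Windows of the 250 bases before a start site were found for 7 of the 10 genes (10 windows), and CCN1, TEAD1 and TEAD4 had none. The search covered both strands and 1 further motif, the AP-1 letters TGANTCA. The window of CCN2 is shown in full because it held GGAATG 3 times, more often than any other window of these genes. Capitals mark GGAATG, and each sequence reads 5′ to 3′ on the strand of its gene.
CCN2, chr6:131951373-131951622, minus strand: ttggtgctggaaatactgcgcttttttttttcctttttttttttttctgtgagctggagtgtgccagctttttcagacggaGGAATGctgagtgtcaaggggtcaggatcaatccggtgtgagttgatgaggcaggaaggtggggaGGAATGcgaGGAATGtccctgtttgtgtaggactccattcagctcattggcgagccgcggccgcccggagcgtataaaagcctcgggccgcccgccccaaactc

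In the CCN2 window GGAATG began 169, 104 and 95 bases before the start site. ANKRD1 held it 220 and 128 bases before its start, and TGANTCA matched once there, 195 bases before the start. YAP1 held GGAATG 162 bases before its start, 1 of 2 AJUBA windows held it 59 bases before, and 1 of 2 AMOTL2 windows held it 69 bases before. These matches are shown with 10 bases on either side, so that the target genes can be set beside the coactivator gene. For AMOTL2 the match lies on the other strand, and its capitals mark the reverse complement of GGAATG.
ANKRD1, chr10:90921292-90921317, minus strand: caccaccaaaGGAATGgccctctcac
ANKRD1, chr10:90921200-90921225, minus strand: cactgagtctGGAATGaaaattcacc
YAP1, chr11:102110275-102110300, plus strand: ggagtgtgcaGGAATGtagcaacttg
AJUBA, chr14:22976886-22976911, minus strand: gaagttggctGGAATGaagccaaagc
AMOTL2, chr3:134374501-134374526, minus strand: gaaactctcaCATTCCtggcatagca

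Start sites here are those of RefSeq, and GENCODE places some of them elsewhere. In GENCODE the second ANKRD1 match, the AJUBA match and the AMOTL2 match lie in the 5′ untranslated part of a first exon of those genes. The YAP1 match lies before the gene, in an exon of AP001527.2, a long non-coding RNA of the opposite strand. The CCN2 matches lie before the gene, in an intron of AL133346.1 on the opposite strand. The WWTR1 and LATS2 windows held no match, which says only that these letters are absent from these windows. Of all 35116 windows of this length in the table, 11.9% held GGAATG, 0.94% held it 2 or more times and 0.0826% held it 3 or more times, and 6.57% held TGANTCA. Of the windows of these genes, 5 of 10 held GGAATG. A match of letters does not show that a TEAD factor binds there.

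With salinomycin 7 of the 10 genes fell and 3 rose, and none failed the test (limma on log2 of the normalised value plus 1, Benjamini-Hochberg adjusted p under 0.05 over all 13088 genes). Both coactivators and both TEAD genes fell, as did CCN2, AMOTL2 and AJUBA, while ANKRD1, CCN1 and LATS2 rose. Most of the transcriptome differed between the groups: 41.6% of tested genes were higher and 40.2% were lower by the same rule, so that being called is the common outcome for a gene here. With library size alone as the scaling, 6461 genes were higher and 4353 lower, so that 59.7% of calls were higher against 50.9%, and the same 3 members rose and the same 7 fell. The median log2 change was -0.88 over the 10 genes and 0.02 over all tested genes. At least 2-fold changes were found for 1 gene higher, against 16.8% of all tested genes, and for 5 genes lower, against 18.5%. These 2-fold counts depend on the scaling. With library size alone the log2 changes of AMOTL2 (-0.97) and AJUBA (-0.92) were under 2-fold, and that of CCN1 (1.01) was over it. The shares of all tested genes beyond 2-fold were not counted with that scaling. The groups did not overlap for 10 of 10 genes, which held for 83.0% of all tested genes.

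**Figure D1:**
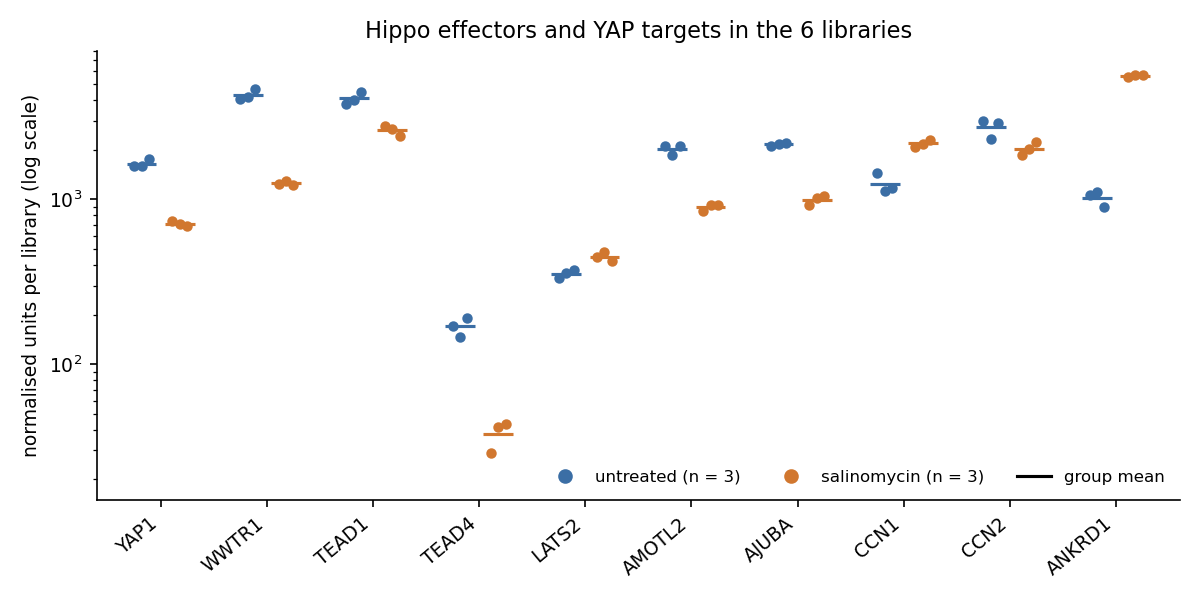
Normalised level (log axis) of each of the 10 genes in every library, with untreated and salinomycin libraries as separate points and the group mean as a line. The 3 points of each group sit close together and the groups do not overlap for any gene, with the widest gap at ANKRD1.

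Both coactivator transcripts were lower with salinomycin, YAP1 by 2.31-fold and WWTR1 by 3.42-fold. YAP1 (chromosome 11, 102110461 to 102233423, plus strand, GRCh38) measured 1604, 1602 and 1751 normalised units in the untreated libraries and 744.3, 705.0 and 692.8 with salinomycin. Every salinomycin value was below the lowest untreated value, and the group means were 1652.5 ± 85.3 and 714 ± 26.9 (SD, n = 3 each). The log2 change was -1.21 (SE 0.059, 95% interval -1.34 to -1.08, limma adjusted p = 2.2e-09), or 2.31-fold lower. WWTR1 (chromosome 3, 149517235 to 149736714, minus strand), which encodes TAZ, measured 4078, 4185 and 4661 untreated and 1248, 1299 and 1230 with salinomycin. The salinomycin values lay within a narrow range far below the untreated ones, and the means were 4308 ± 310 and 1259 ± 35.6 (SD, n = 3 each). The log2 change was -1.77 (SE 0.058, 95% interval -1.90 to -1.64, limma adjusted p = 8.12e-11), or 3.42-fold lower.

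The balance of the coactivator transcripts shifted as well. The log2 ratio of YAP1 to WWTR1 within a library was -1.345, -1.385 and -1.412 untreated and -0.745, -0.88 and -0.827 with salinomycin, so the ratio was higher in each salinomycin library than in any untreated one. The difference was 0.56 on the log2 scale, or 1.48-fold, with no overlap. An exact two-sided permutation of the 6 libraries gave p = 0.1, which is the smallest that 3 against 3 allows, and p = 0.12 after adjustment over the 6 gene pairs compared. Library scaling cancels in such a ratio. Antisense or opposite-strand transcripts overlap exons of both genes, WWTR1-AS1 over 795 bases of WWTR1 and AP000942.2 over 628 bases of YAP1. Neither is in the table and the strand used in counting was not given in the sources used here, so reads of either strand cannot be told apart.

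TEAD1 and TEAD4, the DNA-binding partners, both fell, TEAD4 by the larger factor. TEAD1 (chromosome 11, 12674591 to 12944483, plus strand) measured 3792, 4044 and 4520 untreated and 2807, 2684 and 2436 with salinomycin. All 3 salinomycin values were under the lowest untreated value, and the log2 change was -0.64 (SE 0.071, limma adjusted p = 4.14e-06), or 1.56-fold lower. TEAD4 (chromosome 12, 2959330 to 3040673, plus strand) measured 170.8, 146.8 and 191.0 untreated and 28.7, 41.25 and 43.18 with salinomycin. Its salinomycin libraries varied more than those of any other of the 10 genes, with a coefficient of variation of 20.9%, and rested on 37, 40 and 52 recovered reads. The log2 change was -2.15 (SE 0.175, limma adjusted p = 2.23e-07), or 4.45-fold lower, and 3.9-fold with 8 in place of 1 added to the values before taking the logarithm. The log2 ratio of TEAD1 to TEAD4 rose by 1.51, or 2.86-fold, with no overlap (exact permutation p = 0.1, p = 0.12 adjusted over the pairs).

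All 4 TEAD genes were set side by side per kilobase of exon, since each encodes a factor that YAP and TAZ can bind. TEAD1 made up 45.0% ± 2.9 (SD, n = 3) of the summed TEAD level in untreated and 62.1% ± 1.87 in salinomycin libraries. TEAD2 made up 36.7% ± 2.22 and 11.1% ± 0.263, and TEAD3 made up 9.96% ± 0.874 and 22.7% ± 0.858. TEAD4 made up 8.36% ± 0.684 and 4.04% ± 0.967, and in untreated libraries its share met that of TEAD3 in the third replicate. The sum fell from 886, 848 and 937 per kilobase to 427, 420 and 393. TEAD1 therefore supplied more of a smaller sum, and so did TEAD3. No share overlapped between groups, and the exact permutation test gave its smallest possible p = 0.1 for each of them.

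**Figure D2:**
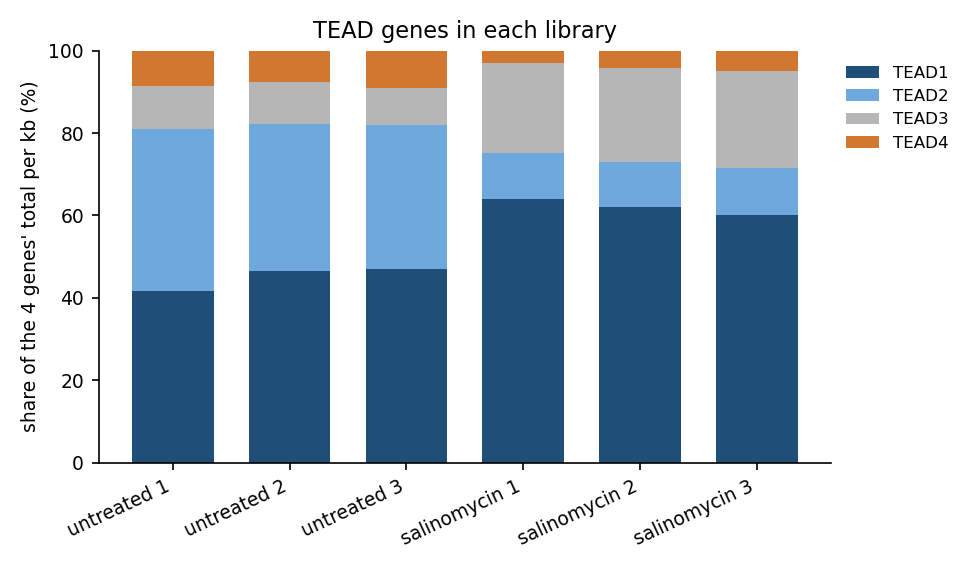
Stacked bars, 1 per library, of the share of the summed TEAD level per kilobase (percent, y axis) held by TEAD1, TEAD2, TEAD3 and TEAD4. Between untreated and salinomycin means TEAD1 rises from 45.0% to 62.1% and TEAD2 falls from 36.7% to 11.1% of the sum.

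TEAD2, a paralog that was named whatever its values, dropped from 973 ± 67.1 to 137 ± 4.78 units (log2 change -2.81, limma adjusted p = 2.28e-11). TEAD3 measured 270 ± 15.5 and 286 ± 4.27 and did not pass (log2 change 0.09, limma adjusted p = 0.339), although with library size alone as the scaling it passed at an adjusted p of 0.00688. Of the VGLL genes, which encode cofactors that also bind TEADs, VGLL3 fell by 1.06 and VGLL4 by 0.54 on the log2 scale (limma adjusted p = 2.1e-06 and 1.48e-06). VGLL2 was below the filter and VGLL1 was not listed. Of the 4 TEAD and VGLL genes tested beside TEAD1 and TEAD4, 3 fell, 1 did not pass and none rose, around a median of -0.80. In all tested genes 40.2% were lower and 41.6% higher.

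Among the 3 genes that act on the cascade and are also YAP targets, LATS2 rose slightly whereas AMOTL2 and AJUBA fell by 2.24-fold and 2.16-fold. LATS2 (chromosome 13, 20973032 to 21061547, minus strand), the kinase that phosphorylates YAP and TAZ, measured 331.9, 356.4 and 373.5 untreated and 444.4, 477.2 and 421.5 with salinomycin. The smallest salinomycin value exceeded the largest untreated one, but the rise was modest at 1.26-fold (log2 change 0.34, SE 0.079, 95% interval 0.17 to 0.51, limma adjusted p = 0.00172). AMOTL2 (chromosome 3, 134355874 to 134375479, minus strand), an angiomotin that holds YAP at junctions, measured 2104, 1863 and 2113 untreated and 852.7, 931.0 and 931.2 with salinomycin. Its log2 change was -1.16 (SE 0.065, limma adjusted p = 7e-09), or 2.24-fold lower. AJUBA (chromosome 14, 22971174 to 22982642, minus strand), a LIM protein that inhibits LATS, measured 2100, 2175 and 2196 untreated and 923.0, 1016 and 1054 with salinomycin. Its log2 change was -1.11 (SE 0.059, limma adjusted p = 4.73e-09), or 2.16-fold lower, with the groups far apart. RPL39P5 shares 187 bases with exons of AMOTL2, and AL132780.3 shares 50 with those of AJUBA, both on the same strand and neither in the table.

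Each of the 3 was compared with its paralog, which was named whatever its values. LATS1 measured 341 ± 20.9 and 449 ± 63.0 units (log2 change 0.39, limma adjusted p = 0.00426), so both LATS genes rose. The log2 ratio of LATS2 to LATS1 was 0.05 ± 0.052 untreated and 0.004 ± 0.15 with salinomycin (SD, n = 3 each), and the groups overlapped (exact permutation p = 0.6, also 0.6 adjusted over the pairs). AMOTL1 measured 1215 and 793 units (log2 change -0.61, limma adjusted p = 6.5e-06), and the log2 ratio of AMOTL2 to AMOTL1 fell by 0.55 with no overlap. LIMD1 measured 1664 and 888 units (log2 change -0.91, limma adjusted p = 8.03e-09), and the log2 ratio of AJUBA to LIMD1 fell by 0.21 with no overlap. For these 2 pairs p = 0.1 by exact permutation and 0.12 after adjustment. AMOTL2 and AJUBA thus fell by more than their paralogs in these libraries, a difference that 3 libraries a group cannot bring below 0.1.

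The 3 secreted or nuclear target genes did not move together. CCN1 rose and ANKRD1 rose furthest of all 10, while CCN2 fell. CCN1 (chromosome 1, 85580761 to 85583962, plus strand), a matricellular protein, measured 1449, 1118 and 1173 untreated and 2083, 2172 and 2312 with salinomycin. All salinomycin values were above all untreated ones, and the log2 change was 0.82 (SE 0.086, 95% interval 0.63 to 1.01, limma adjusted p = 2.45e-06), or 1.77-fold higher. ANKRD1 (chromosome 10, 90912096 to 90921276, minus strand), an ankyrin repeat protein of muscle and stressed cells, measured 1058, 1105 and 897.4 untreated and 5552, 5671 and 5686 with salinomycin. Its salinomycin libraries differed by a coefficient of variation of 1.3% and stood far above the untreated ones. The log2 change was 2.47 (SE 0.070, 95% interval 2.32 to 2.62, limma adjusted p = 2.82e-11), or 5.54-fold higher, and ranked 418 of the 13088 tested genes from the highest change down.

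CCN2 (chromosome 6, 131948176 to 131951373, minus strand), the matricellular protein also known as CTGF, measured 3001, 2314 and 2918 untreated and 1850, 2013 and 2239 with salinomycin. The groups were close, with the second untreated library just above the third salinomycin library. The log2 change was -0.43 (SE 0.096, 95% interval -0.64 to -0.22, limma adjusted p = 0.00134), or 1.34-fold lower. With library size alone as the scaling, which moved the median of all genes by 0.19, the log2 change of CCN2 was -0.24 (adjusted p = 0.0304) and its groups overlapped (2776, 2175 and 2735 against 1998, 2147 and 2385). CCN2 was lower in all 16 alternative settings. AL133346.1, on the opposite strand and not in the table, shares 195 bases with CCN2 exons.

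The difference between CCN1 and CCN2 is free of scaling. Their log2 ratio was -1.05, -1.049 and -1.315 untreated and 0.171, 0.11 and 0.046 with salinomycin. The groups were well apart, and the ratio was below 0 in every untreated and above 0 in every salinomycin library. The difference was 1.25 on the log2 scale, or 2.37-fold (exact permutation p = 0.1, 0.12 adjusted over the pairs).

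**Figure D3:**
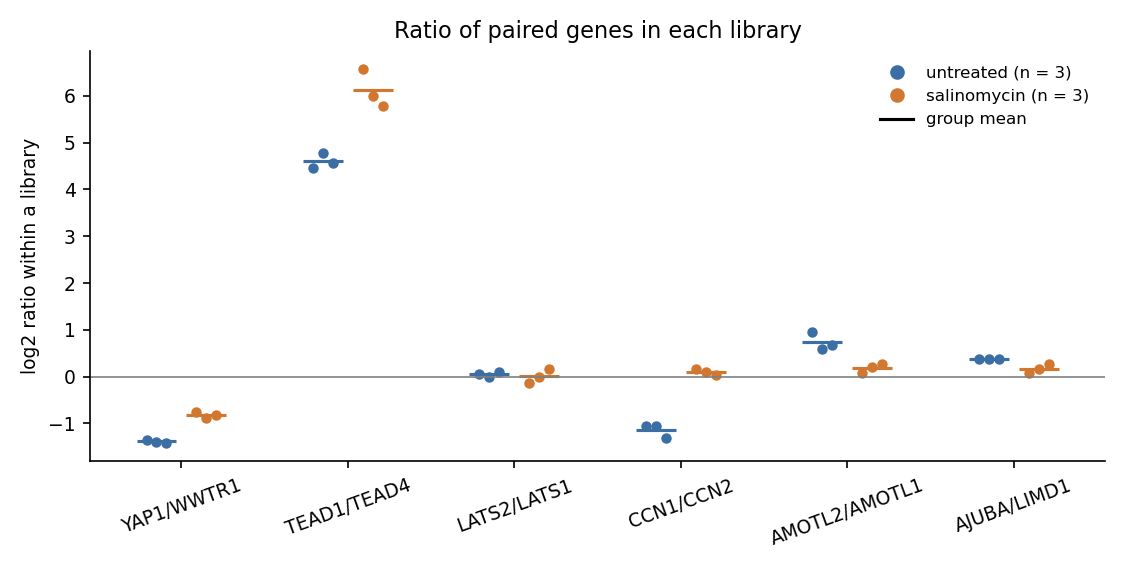
Log2 ratio of each of 6 gene pairs within a library (y axis), with untreated and salinomycin libraries as separate points and group means as lines. The groups are apart for 5 pairs and overlap for LATS2 to LATS1.

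Per kilobase of exon, CCN2 was the highest of the 10 genes in untreated cells at 1170 ± 160 units (SD, n = 3). ANKRD1, WWTR1 and CCN1 followed at 516, 512 and 508 and overlapped in order, so their order is not set by these data. TEAD1, AJUBA and AMOTL2 came next at 401, 361 and 339, of which AJUBA and AMOTL2 overlapped. YAP1 stood at 262, and TEAD4 and LATS2 were lowest at 74.6 and 63.4 with overlapping values. With salinomycin ANKRD1 was highest at 2850 ± 37.1, followed by CCN1 at 892 and CCN2 at 870, which overlapped. TEAD1 followed at 257, and AJUBA, AMOTL2 and WWTR1 came next at 167, 151 and 150, with values that overlapped between neighbours. WWTR1 thus stood with ANKRD1 and CCN1 in untreated cells and with AJUBA and AMOTL2 after salinomycin. YAP1 stood at 113 and LATS2 at 80.3. TEAD4 was last at 16.6. These lengths count all annotated exons of a gene, so the order between genes also depends on that choice.

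**Figure D4:**
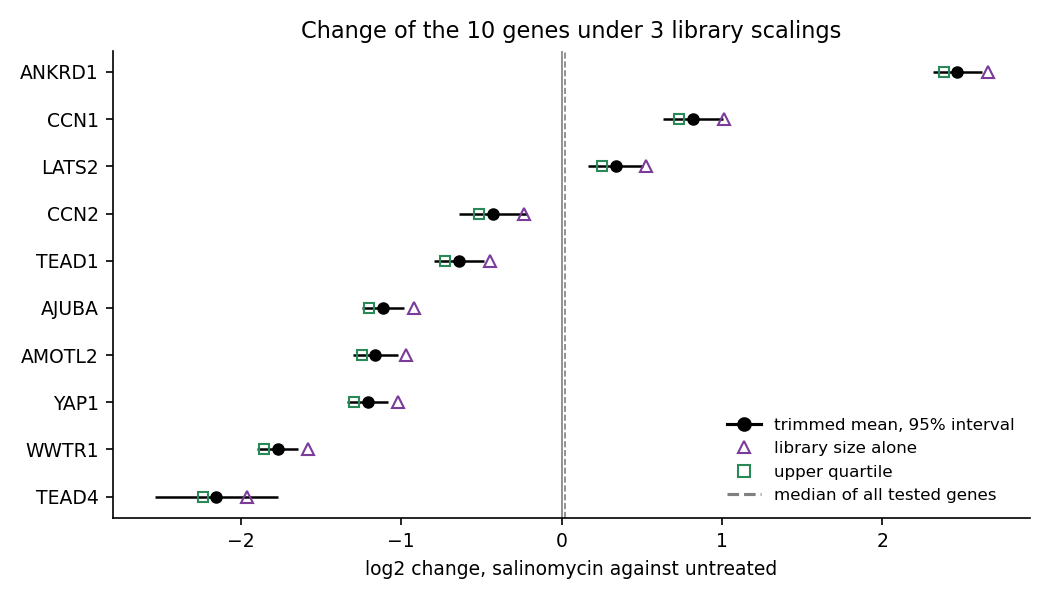
Log2 change with salinomycin (x axis) of each of the 10 genes: filled points with 95% intervals use trimmed-mean scaling, triangles library size alone and squares upper-quartile scaling, and the dashed line is the median of all tested genes. Under each scaling ANKRD1, CCN1 and LATS2 lie above 0 and the other 7 genes lie below it, with trimmed means from -0.43 for CCN2 to -2.15 for TEAD4.

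The authors' deposited table gave the same directions: 3 genes higher and 7 lower. In the authors' deposited table, the log2 fold change was -1.01 for YAP1, -1.58 for WWTR1, -0.443 for TEAD1, -1.95 for TEAD4, 0.534 for LATS2, 1.01 for CCN1, 2.66 for ANKRD1, -0.965 for AMOTL2 and -0.915 for AJUBA. In the authors' deposited table, CCN2 had a log2 fold change of -0.235 with an adjusted p of 0.0174. Scaling by library size alone gave log2 changes here of -1.02 for YAP1, -1.58 for WWTR1, -0.45 for TEAD1, -1.97 for TEAD4, 0.53 for LATS2, 1.01 for CCN1, -0.24 for CCN2, 2.66 for ANKRD1, -0.97 for AMOTL2 and -0.92 for AJUBA, so that all 10 lay close to the values in the authors' deposited table. Of 21624 gene sets in the authors' deposited enrichment table, 13 were named for this pathway, and of these 0 were higher, 4 were lower and 9 did not pass, against 5.01% higher and 12.8% lower over all sets. The 4 that were lower included the conserved YAP signature (normalised enrichment score -1.75, adjusted p = 0.0155) and mechanoregulation of YAP and TAZ (-2.18, adjusted p = 0.000271) in the authors' deposited table. The others were dysregulation of Hippo-Merlin signaling (-1.92, adjusted p = 0.000567) and a miRNA acting on the axis of YAP1 and the matrix (-2.03, adjusted p = 0.00601) in the authors' deposited table. In the authors' deposited table the TAZ target set scored 1.01 (adjusted p = 0.676), the set named YAP1 up scored -1.28 (adjusted p = 0.287) and Reactome signaling by Hippo scored -1.33 (adjusted p = 0.305). Also above 0 in the authors' deposited table were Hippo-YAP signaling (0.668, adjusted p = 0.963) and YAP1 down (0.586, adjusted p = 0.993). Regulation of Hippo signaling (-1.093, adjusted p = 0.557) and leukocyte-intrinsic Hippo functions (-1.213, adjusted p = 0.387) scored below 0 in the authors' deposited table. Hippo signaling regulation pathways (-1.418, adjusted p = 0.106) and Hippo signaling (-1.435, adjusted p = 0.155) did so in the authors' deposited table. These sets share genes with each other and are not independent.

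The kinase cassette itself, MST and LATS with their adaptors, changed by less than 2-fold in every tested gene. Of the 6 genes beside LATS2, 1 rose, 3 fell and 2 did not pass, and the median log2 change was -0.17. Among all tested genes 41.6% were higher and 40.2% lower. MOB1A, a LATS activator, fell from 4097 to 2686 units (log2 change -0.61, limma adjusted p = 1.03e-07), and STK4, an MST kinase, fell by 0.40 (limma adjusted p = 0.000159). LATS1 was the one that rose. MOB1B fell by 0.37 but did not pass with library size alone (limma adjusted p = 0.12). With that scaling 3 of the 6 genes were higher and 2 lower, where 6461 of all 13088 tested genes were higher and 4353 lower.

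Of 14 upstream and junctional genes tested, 5 rose, 6 fell and 3 did not pass, the median being -0.002. All tested genes gave 41.6% higher and 40.2% lower. With library size alone as the scaling, 7 of the list were higher and 4 lower, where 6461 of all 13088 tested genes were higher and 4353 lower. The largest changes on the list went in both directions. RASSF1, a scaffold of the MST kinases, rose from 291 to 1153 units (log2 change 1.98, limma adjusted p = 1.89e-10), and FAT4, an atypical cadherin, rose from 73.5 to 274 (log2 change 1.89, limma adjusted p = 1.9e-08). WWC1, also called KIBRA, an activator of LATS, fell from 4289 to 1688 (log2 change -1.35, limma adjusted p = 5.28e-10). AMOT, the founding angiomotin, measured 29.19, 32.98 and 34.15 units untreated and 5.555, 2.813 and 2.816 with salinomycin. It passed the filter only through the untreated libraries and was tested in 12 of the 16 alternative settings, so although it is 1 of the 6 counted as lower, its test is not given.

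Of 8 tested genes that oppose LATS or MST, or that are related to them, 2 rose, 4 fell and 2 did not pass. For all tested genes the shares were 41.6% higher and 40.2% lower. The list holds the LIM proteins LIMD1 and WTIP, genes of the STRIPAK phosphatase complex, and FAT1, an atypical cadherin that is not an inhibitor of the kinases. WTIP, a LIM protein like AJUBA, fell by 1.52 on the log2 scale (limma adjusted p = 3.59e-09), FAT1 by 1.25 (limma adjusted p = 2.11e-06) and LIMD1 by 0.91. FGFR1OP2 rose by 0.60 (limma adjusted p = 0.000139). AJUBA, WTIP and LIMD1 thus all fell.

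Of 10 genes for turnover and cytoplasmic retention of YAP and TAZ, 7 fell and 3 rose, with a median of -0.56. Across all tested genes 40.2% were lower and 41.6% higher. The 14-3-3 genes YWHAQ, YWHAB, YWHAG and YWHAE, whose products bind phosphorylated YAP, fell by 1.01, 0.94, 0.74 and 0.73 on the log2 scale (limma adjusted p = 4.8e-09, 3.01e-09, 2.47e-08 and 5.73e-08). BTRC, a ubiquitin ligase subunit, CSNK1E, a casein kinase, and SFN, a further 14-3-3 gene, were the 3 that rose and were named after their values were seen. The rise of SFN was small (log2 change 0.18, limma adjusted p = 0.0168) and lost its call in 4 of 16 alternative settings, which were upper-quartile scaling and leaving out untreated replicate 3, salinomycin replicate 2 or salinomycin replicate 3.

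Of 17 other YAP and TAZ targets, 11 fell, 1 rose and 5 did not pass, around a median of -0.78. Over all tested genes 40.2% were lower and 41.6% higher, and the median was 0.02. Most listed targets were thus lower, as CCN2 was, and not higher like CCN1 and ANKRD1. The list was chosen with earlier results of these data known. CCDC80, a matrix protein, fell from 11967 ± 912 to 767 ± 18.4 units, 15.6-fold (log2 change -3.96, limma adjusted p = 3.22e-13). TGFB2, a transforming growth factor, fell from 3954 to 892 units (log2 change -2.14, limma adjusted p = 1.16e-10), and MYOF, a membrane repair protein, fell by 1.12 (limma adjusted p = 8.48e-09) from a high level of 20040. FOXF2, a forkhead factor, fell by 1.66 (limma adjusted p = 3.8e-06). RBMS3, an RNA-binding protein, rose by 1.08 and was named after its values were seen. AXL, a receptor tyrosine kinase, measured 4186 and 4188 units and did not pass, nor did F3, GADD45B, PTPN14 and ARHGEF17; these too were named after their values were seen. With library size alone AXL and PTPN14 passed as higher (limma adjusted p = 0.00457 and 0.0152), while F3 and ARHGEF17 passed as lower with upper-quartile scaling, and F3 also without salinomycin replicate 1.

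Genes of the actin cytoskeleton that SRF and its MRTF coactivators induce are given beside them, since SRF activity, like that of YAP, follows the state of actin. Of 15 tested, 14 fell, 1 did not pass and none rose, around a median of -1.11. The shares over all tested genes were 40.2% lower and 41.6% higher, with a median of 0.02. TAGLN, an actin-binding protein, fell from 5175 to 426 units, 12.0-fold (log2 change -3.59, limma adjusted p = 8.64e-12). TPM2 and TPM1, tropomyosins, fell by 2.74 and 2.22 on the log2 scale, and ACTA2, an actin, fell by 2.23 (limma adjusted p = 2.3e-12, 5.71e-12 and 1.53e-11). Of the 3 further CCN genes tested, CCN5 fell by 1.71 (limma adjusted p = 1.28e-09), and CCN3 did not pass (log2 change -0.27, limma adjusted p = 0.0706), although it did as lower with upper-quartile scaling and without untreated replicate 3. CCN4 measured 16.22, 21.28 and 25.61 units untreated and 0.9258, 0.9376 and 2.816 with salinomycin. It passed the filter only through the untreated libraries and was tested in 12 of the 16 alternative settings, so its test is not given. CCN1 was the one tested CCN gene that rose, and no other passed as higher in any alternative setting. CCN6 was not listed.

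**Figure D5:**
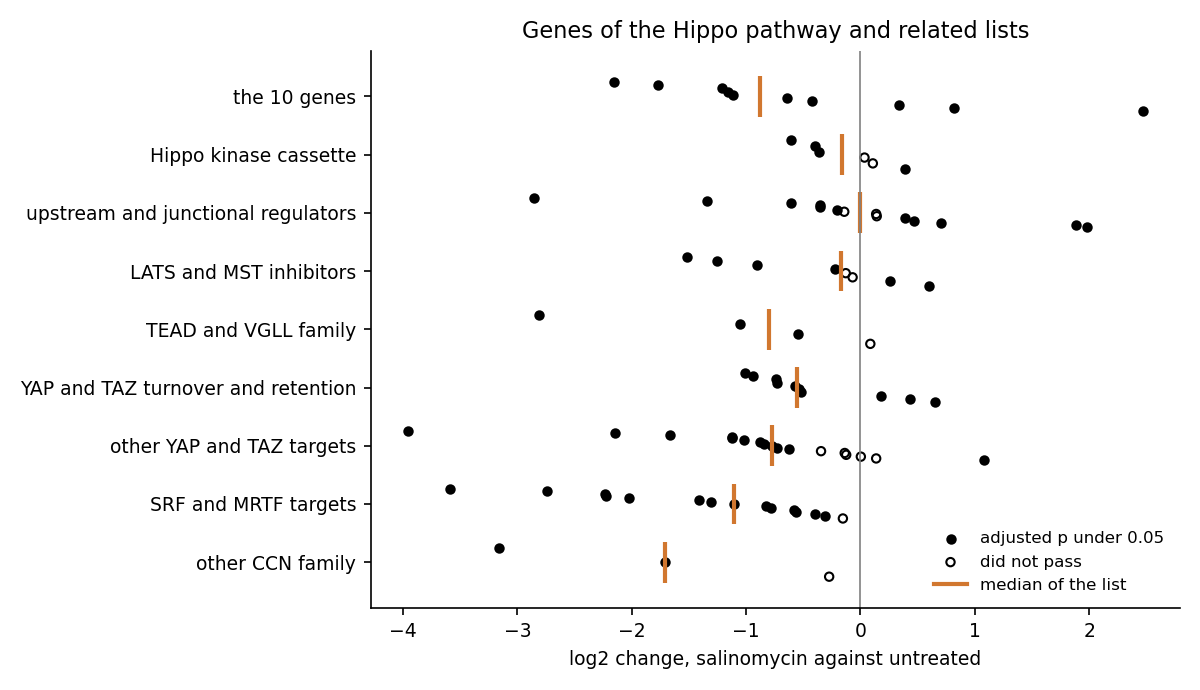
Log2 change with salinomycin (x axis) of every tested gene of each list, one row per list, beside the 10 genes. Filled points passed the test (adjusted p under 0.05), open points did not, and the bar is the median of the list. AMOT and CCN4 are among the points, although both passed the filter only through the untreated libraries. SRF and MRTF targets and other YAP and TAZ targets lie mostly below 0, while the upstream regulators spread to both sides.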

How the data were processed

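Values per gene from RNA sequencing of 3 untreated and 3 salinomycin libraries of A549 cells were used. GRCh38 is the build named per the submitters' processing notes. No aligner, counter, library preparation or annotation was given in the sources used here. The signal values deposited by the authors are whole numbers with 1 in place of 0, and their library totals differ by at most 0.692%, so they had been rescaled and are not raw counts. Per the file headers, the table also holds log10 means, log2 fold changes, linear fold changes (a ratio), a test score and p-values from the comparison by the authors, in which 1563 genes lack an adjusted p. The other deposited table lists enrichment scores and p-values of gene sets.

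After 1 was taken off each value, libraries were scaled by trimmed means (trimming 30% of log ratios and 5% of levels). Library factors spanned 0.925 to 0.9399 (untreated) and 1.065 to 1.08 (salinomycin). Genes at 10 or more in at least 3 libraries were kept. Their log2(value + 1) was fitted with limma 3.58.1 in R 4.3.3, with the trend option, and p-values were adjusted by Benjamini-Hochberg over all 13088 genes. On this scale the change of low genes is understated. The fit was also run on simulated data in which few genes changed. That run does not bear on data like these, in which most genes differed. Permutation tests were exact and two-sided. Gene coordinates (1-based) and exon lengths come from GENCODE release 29, GRCh38. The exon length is the union of all annotated exons of a gene, which need not be the length of the transcript expressed. Levels per kilobase compared between genes, and the TEAD shares, carry that limit.

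The members and lists were chosen with earlier results of these data known. The text names all 10 members, from each list up to 4 genes past the threshold in order of absolute change, the paralogs LATS1, AMOTL1, LIMD1, TEAD2 and TEAD3 whatever their values, and sets of the pathway. Other names are marked where they occur. Libraries with the same replicate number did not deviate together (correlations -0.172, -0.013 and -0.033), so the numbers were not taken as pairs. Alternatives were other scalings, filters and pseudocounts, a replicate block, limma-voom on recovered reads, and leaving out the mitochondrially encoded genes or each library in turn.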

Additional observations from a re-analysis of the deposited data

How the results depend on the processing

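All 10 members kept their direction and their side of the threshold in 16 alternative settings. The log2 change ranged from -1.30 to -1.02 for YAP1, from -1.86 to -1.58 for WWTR1, from -2.27 to -1.97 for TEAD4 and from 2.38 to 2.66 for ANKRD1. The largest adjusted p of limma over the alternatives was 0.0153 for LATS2 and 0.0304 for CCN2, the members nearest the threshold. With the replicate number as a block, which the data do not support as a pairing, 5325 genes were higher and 5130 lower, against 5451 and 5266, and the log2 change of CCN2 was -0.43.

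Counts over lists that moved by over 1.5 times were few. With library size alone, which raised the median of all genes by 0.19, 3 cassette genes (1 in the main setting), 1 TEAD or VGLL gene (0) and 3 other YAP and TAZ targets (1) were higher. With that scaling 2 cassette genes were lower (3). The upstream and junctional list moved by no more than 1.5 times, but its balance turned, with 7 genes higher (5) and 4 lower (6). With upper-quartile scaling 1 of the LATS and MST inhibitors was higher (2). With no filter 1 TEAD or VGLL gene was higher, VGLL2, which the filter removed in the main setting. The 2 other CCN genes counted as lower in the main setting are CCN5 and CCN4, and CCN4 passed the filter only through the untreated libraries. With the stricter filter, or without untreated replicate 1 or untreated replicate 2, CCN4 was not tested and the count was 1. Without untreated replicate 3 CCN4 was not tested either, but CCN3 passed and the count was 2. The depth of TEAD4 and AMOT limits the precision of their folds. The cause of the moves with other scalings was not tested.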
